A study of Mus musculus with 32 samples.

Results

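Replication-dependent histone genes encode the core histones H2A, H2B, H3 and H4 and the linker histone H1 that package newly copied DNA. They were chosen here by name, as genes whose GENCODE M21 symbol begins with Hist1h, Hist2h, Hist3h or Hist4h and whose row in the 14 h ribosome footprint table had a mean of at least 10 counts in coding sequence. The annotation holds 70 such symbols, 60 of them have a footprint row, and 59 of the 23035 rows of the table are members. They are 5 H1, 19 H2A, 15 H2B, 7 H3 and 13 H4 genes. The row left out was Hist1h1t, a testis H1 gene with a mean of 1.75 counts, and the member nearest to the limit was Hist2h2be with a mean of 185.5 counts. The other 10 symbols were not analysed here, among them Hist1h3d, Hist1h3f, Hist1h3g, Hist1h3h and Hist1h3i, so the H3 values cover only some of the H3 genes. The symbols name 4 clusters, with 47 members on chromosome 13, 9 on chromosome 3, 2 on chromosome 11 and 1 on chromosome 6.

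The cells were neural stem cells (NSCs) grown with EGF and FGF from the ventricular-subventricular zone of male C57BL/6 mice aged 8 to 12 weeks. The cultures carried no transgene and were given either vehicle (BSA in PBS) or recombinant IFN-β in the medium for 2 h or 14 h, with 4 cultures from different mice in each of the 4 groups. All cultures received cycloheximide, which halts elongating ribosomes, before lysis. Each culture gave 1 library of ribosome footprints, counted in coding sequence, and 1 library of rRNA-depleted total RNA, counted over the gene body. As a model these are stem cells dividing in culture, outside their niche. The 2 times were counted in separate tables, and the replicate numbers 2 and 3 occur at both. Whether these are the same mice is not given in the sources used here.

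Footprint libraries held 4956144 to 9361609 counts at 2 h and 2956297 to 10505108 at 14 h, and total RNA libraries 3992402 to 7877753 and 1370008 to 2737111. Of 10 neural stem cell markers, all were tested in footprints at 14 h, and 4 were called lower, 0 higher and 6 not called. Of all genes tested, 26.3% were called lower and 26.2% higher. The log2 fold changes of these markers ran from -1.13 to 0.25. Their summed level was 11429 to 13352 CPM (counts scaled to library size) with vehicle and 10575 to 12407 with IFN-β. The microglial genes Aif1 and Cx3cr1 and the ependymal gene Tmem212 had no count. Summed, 6 microglial markers had 37.2 to 41.9 CPM with vehicle and 40.5 to 45.5 with IFN-β. Of the 2 tested, 1 was called lower (-0.75) and 1 higher (1.62). The vehicle sums were 52.9 to 62.2 CPM for 6 neuroblast or neuron markers. They were 3.84 to 5.76 CPM for 6 oligodendrocyte and 6.24 to 9.41 CPM for 4 endothelial markers. The summed level of 4 astrocyte markers was 490 to 597 CPM with vehicle and 931 to 1149 with IFN-β, nearly all of it Aldh1l1 (517 and 1006 CPM). S100b was not called (-0.22), and Gfap and Aqp4 had too few counts to be tested. The summed level of 3 ependymal markers was 17.4 to 24.0 and 43.1 to 58.0 CPM, nearly all of it Foxj1. The part of these markers in the histone results was not tested.

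Messenger RNAs of replication-dependent histone genes are made in S phase and, unlike other mRNAs, carry no poly(A) tail. Their 3′ end is a conserved stem-loop that is bound by SLBP, the stem-loop binding protein, which takes part in the processing, translation and decay of the message. Histone supply is kept in step with DNA synthesis, so these genes are widely read as a measure of S phase activity.

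The stem-loop is the sequence that defines the family, and it was read from the GRCm38 genome to check the members. A match to the histone stem-loop consensus was found 21 to 58 bases after the stop codon of 56 of the 59 members, and in 0 of 4526 other protein-coding genes on the same 4 chromosomes searched in the same way. The members without a match were Hist1h2al, annotated as a processed pseudogene, Hist1h2an and Hist2h2be. The sites shown belong to members whose footprints carry the results below, and capitals mark the 16 bases of stem and loop.
Hist1h1b: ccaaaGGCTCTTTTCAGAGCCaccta
Hist1h1c: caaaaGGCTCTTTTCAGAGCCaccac
Hist1h2ao: aaaaaGGCTCTTTTCAGAGCCatcca
Hist1h2br: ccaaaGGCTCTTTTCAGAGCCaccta
Hist1h3b: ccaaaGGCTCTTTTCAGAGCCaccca
Hist2h3c2: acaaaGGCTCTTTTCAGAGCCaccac
Hist1h4d: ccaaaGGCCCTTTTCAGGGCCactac
Hist4h4: acaaaGGCCCTTTTCAGGGCCcacaa
The H1, H2A, H2B and H3 sites shown share 1 stem and loop, and both H4 sites share another. Hist1h1b (chr13:21779832-21779857, minus strand) and Hist1h1c (chr13:23739507-23739532, plus strand) have the same 16 bases and were the H1 genes with the largest and the smallest fall at 14 h. Hist2h3c2 lies at chr3:96238480-96238505 on the minus strand, Hist1h4d at chr13:23581945-23581970 on the plus strand and Hist4h4 at chr6:136803993-136804018 on the minus strand. Over all members, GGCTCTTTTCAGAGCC was present in 5 H1, 15 H2A, 10 H2B and 5 H3 genes, and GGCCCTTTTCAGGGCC in 8 of the 13 H4 genes.

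Promoters were read from RefSeq (GRCm38.p6) for the 54 members that matched, from 250 bases before to 50 after the start. On either strand, TATAAA was present in 32 of 54 members (59.3%) against 15.7% of 27025 genes, and CCAAT in 45 of 54 (83.3%) against 41.1%. All matched H1, H2A, H2B and H3 promoters held CCAAT, as did 3 of 12 H4 promoters. The octamer ATTTGCAT, a known element of histone H2B promoters, was present in 7 of 18 H2A and 5 of 13 H2B promoters (12 of 54 members, 22.2%) against 1.97% of all genes. H2A and H2B genes often lie head to head and share a promoter, and the octamer of such pairs is then read in opposite directions. A shared octamer is shown for 2 pairs, with its 8 bases in capitals, each sequence read on the strand of its gene.
Hist1h2bg: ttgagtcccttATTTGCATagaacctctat
Hist1h2ae: atagaggttctATGCAAATaagggactcaa
Hist1h2bk: catttcactttATTTGCATacgaagttcta
Hist1h2ah: tagaacttcgtATGCAAATaaagtgaaatg
The first pair shares chr13:23571330-23571359 and the second chr13:22035780-22035809, with the H2B gene on the plus strand in both. A match is a description of the sequence and says nothing on factor binding.

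At 14 h of IFN-β, footprints on every member were lower than with vehicle. All 59 members were called lower by edgeR's quasi-likelihood test at an adjusted p under 0.05, against 26.3% of the 12113 genes tested, and none was called higher, against 26.2%. The median log2 fold change was -2.14, which is 22.7% of the vehicle level in scaled counts. The members ranged from -2.99 for Hist2h3c2 to -1.43 for Hist1h1c. The median over all genes tested was 0.00303. These values are relative to the other footprints of the same libraries, and the scaling holds the median gene near no change. The paper reports a fall of global protein synthesis after long exposure, and amounts per cell were not measured here. In all 59 members each IFN-β library was below each vehicle library, against 23.7% of all genes. Of the 100 most negative log2 fold changes among the genes tested, 45 were those of members, and all members were among the lowest 246. In bulk libraries fewer cells in S phase and less histone translation per cell cannot be told apart.

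Summed over a class, reads shared by near-identical members stay within the sum. Any reads that mapping gave to copies without a footprint row, such as Hist1h3d, would not be in it. Together the 59 members had 35737, 38157, 41530 and 38478 CPM in the 4 vehicle libraries and 8385, 8772, 10648 and 10755 CPM in the 4 IFN-β libraries. The groups were far apart, and the members took 3.86% ± 0.222 (SD, n = 4) of all footprint counts with vehicle. With IFN-β their share was 0.958% ± 0.107 (SD, n = 4). The difference of the sums was -1.997 on the log2 scale. It was -2.32 for H3, -2.16 for H2A, -1.98 for H2B, -1.86 for H1 and -1.84 for H4.

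**Figure D1:**
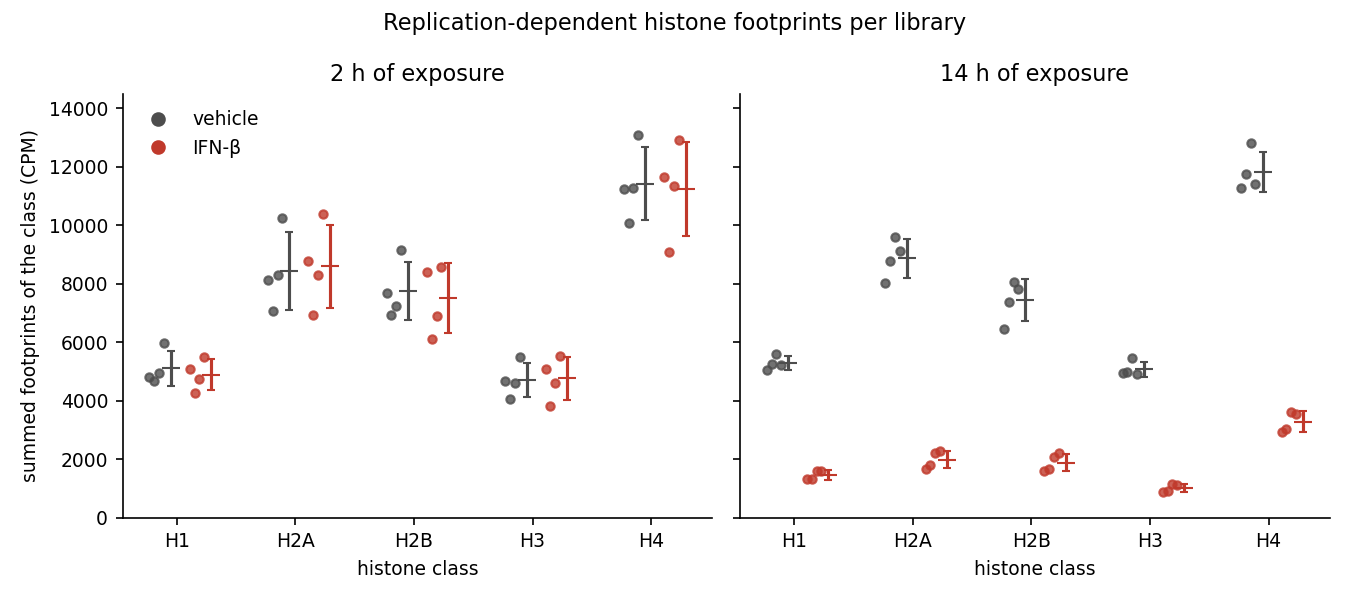
Summed footprints of each histone class in CPM (vertical axis) for the 4 libraries of vehicle and of IFN-β at 2 h and at 14 h, each point 1 library and the bar the group mean with SD. At 14 h every IFN-β library lies below every vehicle library in each class, and at 2 h the groups overlap.

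Linker histones. H1 binds the DNA that enters and leaves the nucleosome, and the 5 genes encode the somatic subtypes H1.1 to H1.5. Hist1h1b, the gene of H1.5, had 1011, 1037, 1104 and 1006 CPM with vehicle and 153, 133, 201 and 160 CPM with IFN-β. Its log2 fold change was -2.68 (SE 0.10, edgeR adjusted p = 1.6e-10). The highest IFN-β library stood at a small part of the lowest vehicle library. Hist1h1c, the gene of H1.2, began at a like level, with 1033, 1109, 1157 and 1104 CPM, and stood at 394, 365, 419 and 458 CPM with IFN-β (-1.43, SE 0.07, edgeR adjusted p = 2.2e-09). Of the other H1 genes Hist1h1a (H1.1) had a log2 fold change of -2.17, Hist1h1d (H1.3) of -1.94 and Hist1h1e (H1.4) of -1.44. The 5 H1 genes thus differed in how far they fell, though each was called lower.

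H2A genes. H2A pairs with H2B in the nucleosome, and its genes fell by a median of 2.21 on the log2 scale, with a range of -2.78 for Hist1h2an to -1.64 for Hist3h2a. The most counted member, Hist1h2ao, had 1096, 1332, 1436 and 1314 CPM with vehicle and 241, 276, 329 and 327 CPM with IFN-β (-2.14, SE 0.10). Hist1h2an had 263, 197, 237 and 236 CPM with vehicle against 35.8, 25.6, 37.7 and 37.0 CPM. It was called lower like the rest, at a lower starting level. Hist2h2aa2 of the Hist2 cluster fell by 1.92 and Hist1h2ab by 2.10. Hist1h2aa, the gene of the testis histone TH2A, had 77.2 ± 5.18 CPM (SD, n = 4) in vehicle libraries against 15.7 ± 2.44 CPM (SD, n = 4) after IFN-β (-2.26). Of the words of 28 bases in its coding sequence 13.3% occur in another histone gene, so most of its sequence is its own.

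H2B genes. Their median was -2.02, and the range ran from -2.27 for Hist1h2ba, the gene of the testis histone TH2B, to -1.59 for Hist2h2be. Hist1h2br, the most counted H2B gene, had 708, 989, 1083 and 1078 CPM with vehicle and 207, 241, 293 and 355 CPM with IFN-β (-1.81, SE 0.16). Hist2h2be, which has no stem-loop match, had 29.6, 35.7, 41.3 and 32.7 CPM with vehicle and 12.1, 10.1, 13.4 and 11.2 CPM with IFN-β (-1.59, SE 0.12). It was the lowest of the members in level, and its groups did not overlap either. Hist1h2bb fell by 1.93 and Hist1h2bn by 2.07. In the 12 head-to-head pairs of an H2A and an H2B gene, whose starts lie 176 to 306 bases apart, the median absolute difference of the log2 fold changes of partners was 0.28. The H2A gene had the more negative value in 9 of the 12 pairs, and the widest gap was 0.71, between Hist1h2an (-2.78) and Hist1h2bp (-2.07). In the remaining pairs, those of Hist1h2aa, Hist1h2ai and Hist1h2ao, the H2A gene was on the plus strand. Hist1h2ad was on the plus strand too, and had the more negative value of its pair (-2.34, against -2.02 for Hist1h2bf). Partners lie on opposite strands, and the values of copies also went with strand (below). Most H2A partners lay on the minus strand, and class and strand were not separated by a test.

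H3 genes. H3 and H4 form the tetramer at the centre of the nucleosome, and H3 had the lowest class median, -2.55. Hist2h3b had 736, 931, 1000 and 928 CPM with vehicle and 103, 125, 148 and 157 CPM with IFN-β (-2.74, SE 0.12). Hist2h3c1 had 894, 1177, 1249 and 1086 CPM against 150, 162, 179 and 188 CPM (-2.69, SE 0.10). These genes of the Hist2 cluster on chromosome 3 had the lowest values of the class together with Hist2h3c2. Hist2h3c2 had 361 CPM in vehicle replicate 1 and 136, 162 and 163 CPM in the other vehicle libraries, against 35.2, 20.4, 29.0 and 21.9 CPM with IFN-β. Its log2 fold change of -2.99 became -2.60 without vehicle replicate 1. The Hist1 genes Hist1h3a (-2.55), Hist1h3b (-2.15) and Hist1h3e (-1.52) were spread over the rest of the range.

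H4 genes. The 13 genes had a median log2 fold change of -1.94, with values between -2.48 for Hist4h4 and -1.46 for Hist1h4n. Hist1h4d, the most counted member of all, had 1681, 1944, 2106 and 1868 CPM with vehicle and 518, 566, 628 and 644 CPM with IFN-β (-1.69, SE 0.08). Hist4h4, alone in its cluster on chromosome 6, had 159, 162, 165 and 164 CPM with vehicle and 26.8, 23.7, 29.5 and 34.5 CPM with IFN-β (-2.48, SE 0.09). The 4 vehicle values of Hist4h4 lay within a few CPM of each other. The abundant genes Hist1h4h and Hist1h4b had log2 fold changes of -1.84 and -1.96, and Hist2h4 had -1.94.

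**Figure D2:**
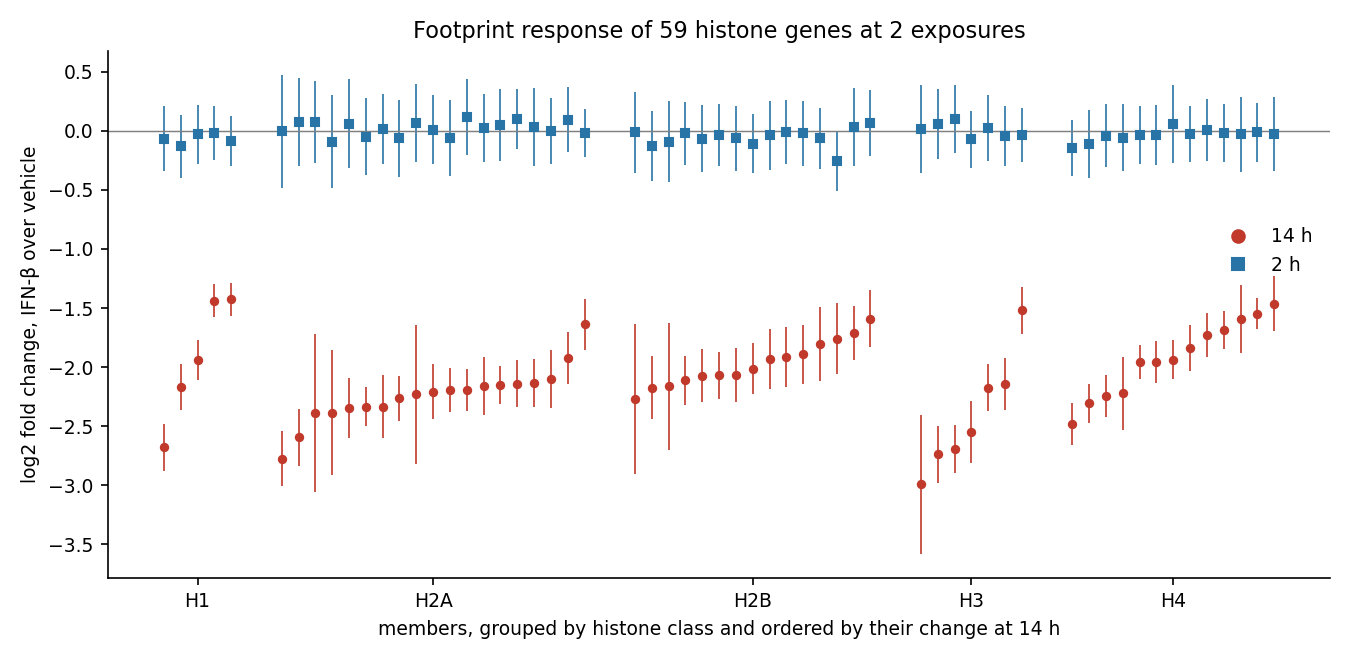
log2 fold change of IFN-β against vehicle in footprints (vertical axis) of each of the 59 members, grouped by histone class, at 14 h and at 2 h, with bars for the 95% interval. At 14 h all members lie between -2.99 and -1.43, and at 2 h between -0.25 and 0.12.

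Footprint levels can be set against those of other genes only per length of coding sequence. With vehicle at 14 h, 34 of the 58 members with a coding length were among the 100 highest of 11813 genes in CPM per kb. Hist1h4d was the highest member with 6148 CPM per kb, second of all genes, and Hist2h2be the lowest with 92.1. At 2 h 33 members were among the 100 highest with vehicle. Reads are shared between copies, so the rank of a single gene depends on how they were split. Hist1h2ao and Hist1h2ap, with identical coding sequences, ranked 13 and 589 at 14 h.

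The H1 genes started at similar levels, and their make-up was followed library by library. Of their 28-base words 0.817% (Hist1h1a) and 4.67% (Hist1h1b) occur in another histone gene, but 30.7% (Hist1h1c), 36.2% (Hist1h1d) and 31.6% (Hist1h1e) do, so the last 3 can share reads. Hist1h1b held 19.7% ± 0.319 (SD, n = 4) of the H1 footprints in vehicle libraries at 14 h and 11.1% ± 1.19 (SD, n = 4) with IFN-β, and Hist1h1a 17.6% ± 0.203 and 14.0% ± 0.988. Hist1h1c held 20.8% ± 0.327 with vehicle and 28.1% ± 1.71 with IFN-β, and Hist1h1e 18.7% ± 0.970 and 25.0% ± 0.552. Hist1h1d, with 23.2% and 21.9%, had overlapping groups, and the other 4 shares did not overlap.

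The log2 ratio of each of the 10 pairs of H1 genes was compared between groups, a comparison chosen after the values were seen. With 4 libraries a group an exact two-sided permutation test cannot go below p = 0.0286, and 9 of the 10 pairs reached that value (adjusted p over the 10 pairs = 0.0317). Permuted within replicate numbers, the design cannot go below an exact p of 0.125, and the same 9 pairs reached that value, each with 4 of 4 numbers shifted the same way. By that test no pair could pass. The largest shift was that of Hist1h1b against Hist1h1c, -1.26 on the log2 scale. The ratio of Hist1h1c to Hist1h1e moved by 0.01 (exact permutation p = 0.83). At 2 h the smallest exact permutation p was 0.0571, or 0.429 adjusted over the 10 pairs.

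**Figure D3:**
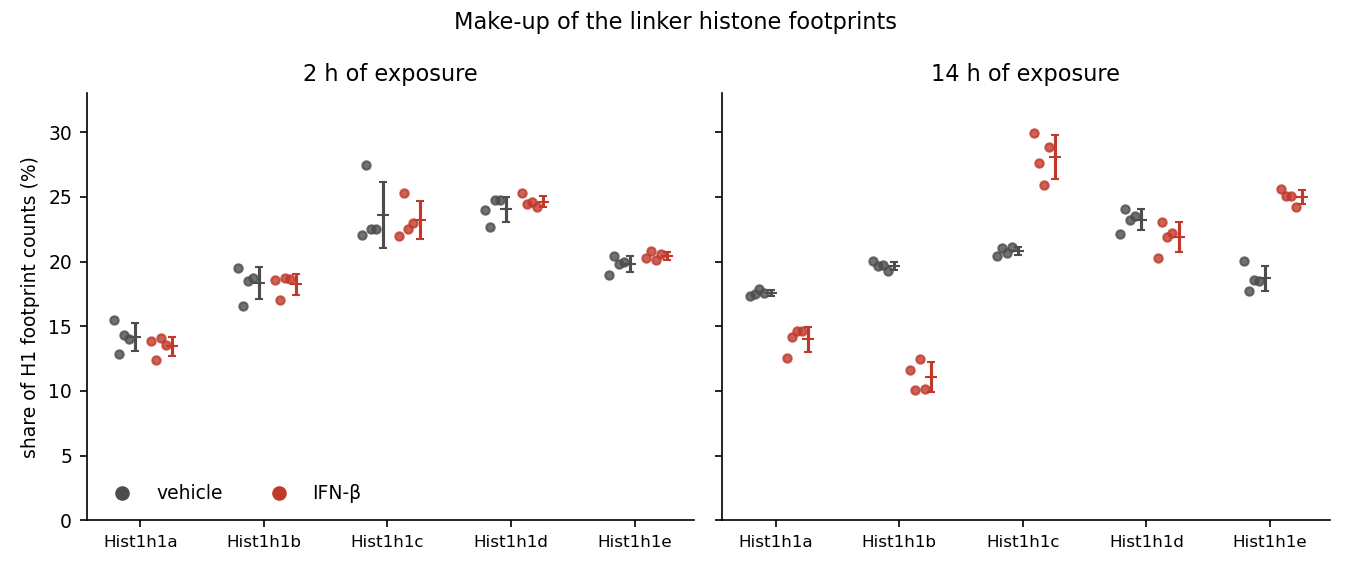
Share of the summed H1 footprints in percent (vertical axis) held by each of the 5 H1 genes in each library with vehicle and IFN-β at 2 h and 14 h, with the group mean. At 14 h the shares of Hist1h1c and Hist1h1e are higher and those of Hist1h1a and Hist1h1b lower with IFN-β, with no overlap.

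At 2 h no member was called. The edgeR test gave 0 members lower, against 2.01% of 12104 genes, and 0 higher, against 5.25%, and 0 members had an unadjusted p under 0.05 by edgeR, DESeq2 or limma-voom. The median log2 fold change was -0.02 with 39 negative and 20 positive values, from -0.25 for Hist3h2ba to 0.12 for Hist2h2ac. The 95% intervals of the members lay between -0.51 and 0.48. A change at 2 h of the size seen at 14 h lies outside these intervals.

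The summed members had 36509, 32798, 36355 and 43967 CPM with vehicle at 2 h and 38969, 30220, 35876 and 42938 CPM with IFN-β. The groups overlapped, and cultures of the same replicate number were close to each other in both groups. Hist1h1b had 939, 778, 914 and 1122 CPM with vehicle and 943, 726, 888 and 1026 CPM with IFN-β (-0.07). Hist2h3b had 913, 775, 899 and 1153 CPM with vehicle and 1064, 784, 915 and 1123 CPM with IFN-β (0.06). Hist1h4d stood at 1917 ± 186 CPM (SD, n = 4) and 1897 ± 260 CPM (SD, n = 4).

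With the replicate number as a block, 4 of 59 members were called lower at 2 h by edgeR, against 13.4% of 12104 genes, and 0 higher, against 15.9%. The members' share of calls was thus below that of all genes, and the values are given only as a description. These were Hist3h2ba (-0.24, adjusted p = 0.00306), Hist1h1a (-0.13, adjusted p = 0.0104), Hist1h4f (-0.12, adjusted p = 0.0397) and Hist4h4 (-0.14, adjusted p = 0.0471). Hist3h2ba had 95.01, 127, 97.3 and 120 CPM with vehicle and 88.8, 89.1, 81.5 and 109 CPM with IFN-β, lower in each of the 4 pairs.

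The difference between the times was tested itself, with an interaction term for time and treatment in 1 fit of all 16 footprint libraries. All 59 members were called lower, that is with a more negative response at 14 h, against 15.5% of 12508 genes. The median difference was -2.09 on the log2 scale, and it ran from -2.98 for Hist2h3c2 to -1.33 for Hist1h1c. Each time is a set of libraries of its own, so a batch of libraries and a time cannot be told apart in this comparison. The vehicle libraries of the 2 times also differed. Astrocyte markers summed to 1348 to 2475 CPM at 2 h and 490 to 597 at 14 h. Genes of the DNA replication machinery summed to 2172 to 3645 CPM at 2 h and 3661 to 4047 at 14 h. The part of this in the interaction was not tested.

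By cluster, the median at 14 h was -2.14 for the 47 members of Hist1, -2.20 for the 9 of Hist2, -1.70 for Hist3h2a and Hist3h2ba and -2.48 for Hist4h4. At 2 h the 9 Hist2 members lay between 0.02 and 0.12, and the Hist1 median was -0.03. None of these 2 h values was called.

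Histone genes of a class are near-identical in coding sequence, so a footprint often fits several copies. The median share of 28-base words found in another histone gene was 89.0% in H2A, 88.6% in H2B and 80.9% in H4, and 0.817% to 36.2% in H1. Counting words found in transcripts of any other gene, histone or not, 11 members had less than 50% of shared words. Their median log2 fold change was -2.14 at 14 h, as was that of the 48 others. With near-identical copies summed before the test, the value at 14 h was -1.98 for 12 H2B copies, -1.86 for 10 H4 copies and -2.23 for 12 H2A copies of the Hist1 cluster. It was -2.05 for 4 H3 copies of the Hist1 cluster and -2.73 for the 3 of the Hist2 cluster. The difference between the H3 copies of the Hist1 and Hist2 clusters was not tested. Hist3h2a lies within the same-strand gene Trim17 and Hist2h3c1 within the same-strand gene Gm20634, so their reads are also uncertain.

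The split of reads between copies is visible in pairs whose coding sequences are identical over their whole length. Such a pair has 1 sequence and no read can tell its genes apart, yet the counts were far from equal. Hist1h2ao had 5971, 13174, 11519 and 13691 counts with vehicle at 14 h, and its copy Hist1h2ap 995, 708, 706 and 958. The ratio of Hist1h2ao to Hist1h2ap was thus 6.00 in vehicle replicate 1 and 10 to 18.6 in the other 7 libraries at 14 h. For Hist2h2aa2 and Hist2h2aa1 it was 6.17 against 11.3 to 22.0, and for Hist1h2br and Hist1h2bq 2.16 against 3.96 to 8.17. For Hist1h4m and Hist1h4n it was 2.32 against 2.48 to 3.99, while at 2 h it was 8.04 to 9.25. Among the IFN-β libraries at 14 h, replicate 1 had the lowest ratio in each pair. It was 10 against 15.0 to 17.3 in the other IFN-β libraries for Hist1h2ao and Hist1h2ap. For Hist2h2aa2 and Hist2h2aa1 it was 11.3 against 17.7 to 21.2, and for Hist1h2br and Hist1h2bq 3.96 against 6.30 to 8.06.

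Vehicle replicate 1 at 14 h therefore stood apart in how reads fell on copies, and IFN-β replicate 1 was shifted the same way in these pairs. In vehicle replicate 1, 8 members were more than 1.5 times as high as the mean of the other vehicle libraries. They were so by 1.59 to 2.55 times, 7 of them were on the minus strand, and 34 members were below that mean. Without vehicle replicate 1, with IFN-β replicate 1 kept, Hist1h2al was at -1.96 in place of -2.39 and Hist1h2ba at -1.87 in place of -2.27. Hist2h2aa1 was then at -1.85 in place of -2.23 and Hist1h2bq at -1.80 in place of -2.16. All 59 members were still called lower. The value of a single copy therefore depends on how reads were assigned, and the cause of the split was not tested.

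**Figure D4:**
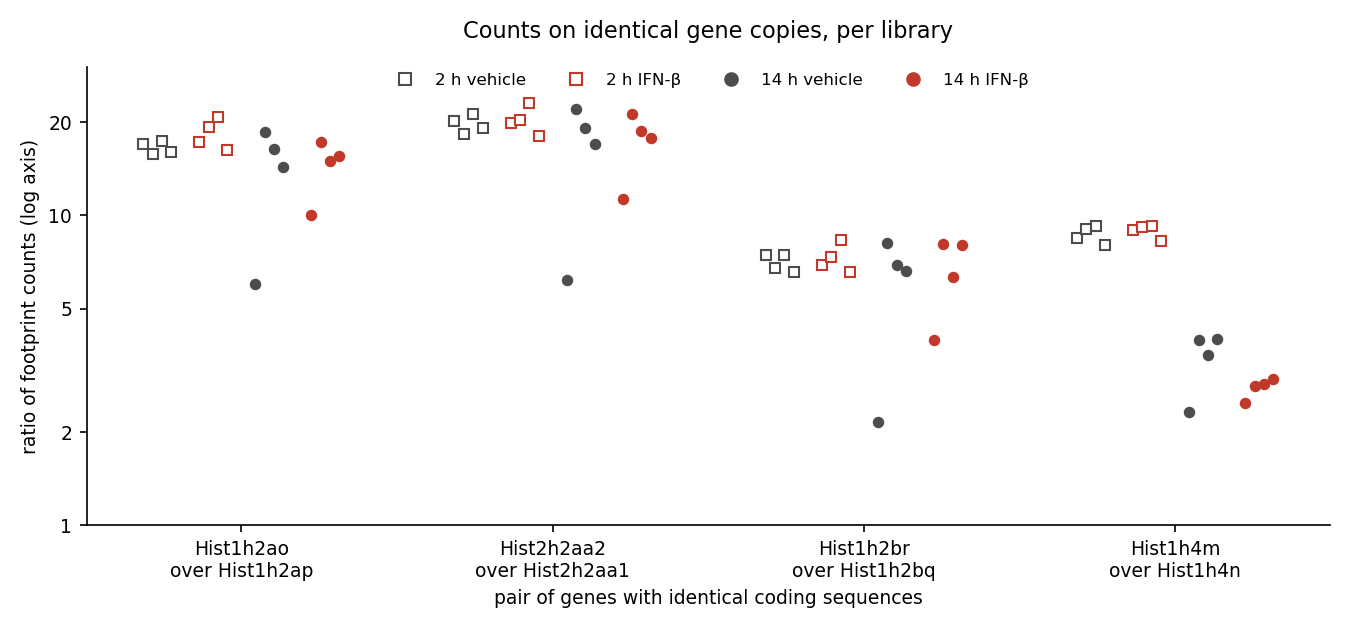
Ratio of footprint counts between the genes of 4 pairs with identical coding sequence (vertical axis, log scale), with a point for each library at 2 h and 14 h. Vehicle replicate 1 at 14 h has the lowest ratio of the 14 h libraries in each pair, and IFN-β replicate 1 at 14 h the next lowest.

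Strand also went with the level of copies in class medians. Among the pairs with identical coding sequence, Hist2h2aa2 on the minus strand went the other way. It had 1225 CPM with vehicle at 14 h, against 91.2 CPM for Hist2h2aa1 on the plus strand. In the other such pairs the plus-strand gene had more counts. At 14 h with vehicle the median was 757 CPM over 10 plus-strand and 240 CPM over 5 minus-strand H2B genes, and 1571 CPM over 5 and 428 CPM over 8 H4 genes. For H2A it was 787 and 205 CPM, 1102 and 459 CPM for H3, and 1101 and 1014 CPM for H1. The median log2 fold change on the plus and the minus strand was -2.16 and -2.34 for H2A, -1.92 and -2.16 for H2B, -1.84 and -2.08 for H4 and -1.94 and -2.06 for H1. For H3 the order was turned, with -2.69 and -2.36, and no test was made between strands.

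Total RNA held few counts of the members. The median member had a mean of 5.88 counts per total RNA library at 14 h and 19 at 2 h, against 3052 and 3466 in footprints. Members made up 0.0431% of the total RNA counts with vehicle at 14 h and 0.0163% with IFN-β. Of the 21 members that passed the filter on low counts at 14 h, 16 were called lower by edgeR, against 2.83% of 7520 genes, and the median over the 21 was -1.47. The other 38 had too few counts to be tested, and 3 had no count in any library at 14 h.

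Hist2h3b had the lowest total RNA value, -2.98 (SE 0.32, edgeR adjusted p = 1.2e-05), from 157, 184, 33 and 87 counts with vehicle and 19, 24, 15 and 21 with IFN-β. Hist1h3b had 61, 49, 15 and 43 counts against 7, 16, 11 and 20 (-2.06). Vehicle replicate 3 had the lowest vehicle count of both genes, and also the lowest total count of the table and a TMM scaling factor of 0.486. Hist1h1c (-1.17) and Hist1h1e were called lower as well. The members not called were Hist1h1d (-0.96), Hist1h2ae (-0.90), Hist2h2ac (-0.64), Hist1h2be (-0.27) and Hist1h4i (0.85, adjusted p = 0.169).

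The total RNA calls depend on scaling. With total counts alone 10 members were called lower, and with 1 library left out in turn 8 to 15. The count was 8 without IFN-β replicate 1 or 2, 9 without IFN-β replicate 3 or vehicle replicate 1, and 10 without vehicle replicate 2 or 4. At 2 h 0 of 35 members tested were called lower, against 0.0773% of 11639 genes, and 0 higher, against 0.722%. None had an unadjusted p under 0.05 by edgeR, DESeq2 or limma-voom.

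In 21 cases the annotation has another gene on the strand opposite to a member, and 5 of these opposite genes have a total RNA row. They were looked at after their values were seen, because they held far more total RNA counts than the histone genes. Gm20632, opposite to Hist2h2aa2, had 26089, 23694, 6740 and 17645 counts with vehicle at 14 h and 6353, 7558, 5597 and 6460 with IFN-β, while Hist2h2aa2 had 0 in all 8 libraries. Its log2 fold change was -1.97 (SE 0.26, edgeR adjusted p = 0.00011). Gm20628, opposite to Hist2h3b, had 7370 to 21930 counts with vehicle and 2791 to 6591 with IFN-β (-2.29).

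The other opposite genes were Gm20633 at Hist2h2aa1 (-2.05), 4930558J22Rik at Hist1h4b (-2.14) and Gm15444 at Hist2h2ab (-2.28). All 5 were called lower at 14 h and 0 at 2 h by edgeR. The strand setting of the counting is not given in the sources used here, and whether these counts are reads of the histone mRNAs was not tested.

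**Figure D5:**
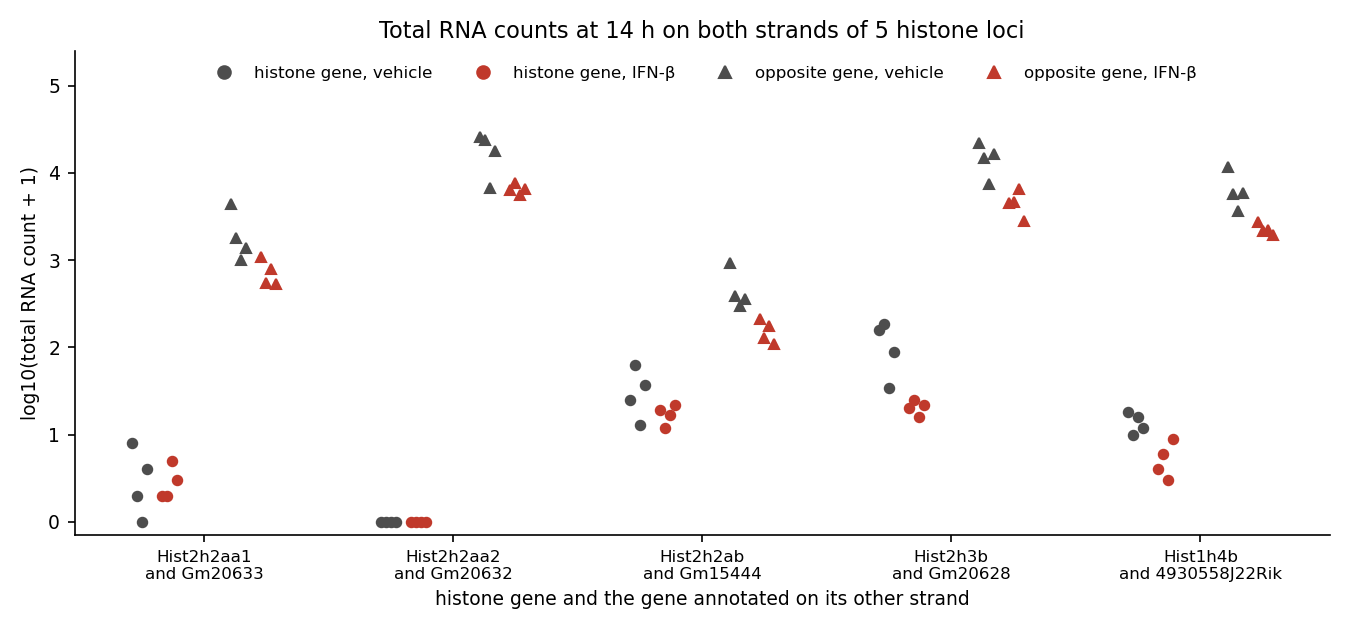
Total RNA counts at 14 h (vertical axis, log scale) of 5 members and of the gene annotated on the opposite strand of each, with a point for each library. Each opposite gene has more counts than its member in every library.

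The first of the related lists held 11 histone genes with other symbols, often termed replication-independent. Whether each of them, H2afx among them, is made outside S phase was not tested. Of these 11 genes 8 were called lower in footprints at 14 h, against 26.3% of all genes tested, and 3 were not called. Their median log2 fold change was -0.79. H2afx, the gene of H2A.X, which marks DNA breaks, fell by 2.01, and H2afj by 1.82. Cenpa, the centromeric H3, fell by 1.16 and H2afz, the gene of H2A.Z, by 0.83. The genes of H3.3 (H3f3a, -0.09, and H3f3b, 0.09) and of H1.0 (H1f0, -0.09) were not called. The median was closer to 0 than that of the 59 members, and the difference was not tested.

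Of 16 tested genes for the making and decay of histone mRNA 9 were called lower (26.3% of all genes), 1 higher (26.2% of all genes) and 6 were not called, with a median of -0.26. Slbp, which binds the stem-loop, fell by 0.96, and Lsm11, a subunit of the U7 particle that cuts the 3′ end, by 1.45. Eri1, a 3′ exonuclease that acts on the stem-loop, fell by 1.05, Casp8ap2 (FLASH), which takes part in 3′ end cutting, by 0.97 and Npat, a coactivator of histone transcription, by 0.44. Ctif, a cap-binding translation factor, rose by 0.39.

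Of 22 histone chaperones and carriers 16 were called lower and 3 higher, against 26.3% and 26.2% of all genes, and 3 were not called, with a median of -0.50. Chaf1b, a subunit of the CAF-1 complex that places new H3 and H4 on copied DNA, fell by 2.07 and Asf1b, which hands H3 and H4 over, by 1.89. Daxx, a chaperone of H3.3, rose by 1.60 and the importin Ipo4 by 0.39. All 38 genes of the DNA replication machinery were called lower, against the same 26.3%, with a median of -1.51, led by Cdc6 (-2.42) and Orc1 (-2.27), which load the replicative helicase. At 2 h no gene of these 4 lists was called other than Daxx, which rose by 1.38 (edgeR adjusted p = 0.000102).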

How the data were processed

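Ribosome footprints and total RNA of the same NSC cultures were measured in 32 libraries. The authors trimmed the reads with Trim Galore 0.4.4, mapped them with Bowtie 0.12.7 to the Ensembl transcriptome of mm10, removed duplicates and counted them with SummarizeOverlaps in its Union mode. The deposited values are raw counts per gene from the authors, with no molecular identifiers and no normalization. How duplicates were defined is not given in the sources used here. Hist1h4d had a mean of 52.4 counts per coding base with vehicle at 14 h. The effect of duplicate removal on such densely covered genes was not tested. The strand setting is not given in the sources used here. With near-identical genes, mapping decides which copy receives a read, so single copies are less certain than class sums.

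Symbols and positions came from GENCODE M21, which matched 22282 of 23035 footprint rows. Unmatched rows held 0.617% (14 h) and 0.776% (2 h) of footprint counts. A gene was tested where 4 or more libraries of the fit had 10 or more counts for it. Tests were run in R 4.3.3 with edgeR 4.0.16 (quasi-likelihood, TMM, two-sided) and Benjamini-Hochberg adjustment over all genes tested. CPM were scaled by TMM. Class sums and medians carry no test. DESeq2 1.42.0, limma-voom (limma 3.58.1), total counts alone, other filters, summed copies, the replicate number as a block and single libraries left out were tried. The main footprint fits at 2 h and 14 h were first tested on simulated data, and the other fits were not. The rest was done in Python 3.11.15 (scipy 1.17.1, pandas 2.3.3, numpy 2.4.6, matplotlib 3.10.9).

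Footprint libraries of the same replicate number deviated together, with correlations of 0.192 to 0.418 at 14 h and 0.328 to 0.812 at 2 h. The numbers were therefore taken to pair them, but only in the alternatives with a replicate block. The main tests had no such block, so their SEs, p-values and intervals do not use the pairing.

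Members and gene lists were chosen with earlier results of these data known. Named members are, in each class, the 3 most counted and those with the lowest and highest log2 fold change at 14 h and at 2 h. Other members were named after their values were seen.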

Additional observations from a re-analysis of the deposited data

Results flagged for a closer look

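The footprint response of 59 of 59 members differed between 14 h and 2 h in the interaction test of time and treatment by edgeR, with a median difference of -2.09 on the log2 scale.

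In 6 of 144 groups of 4 libraries examined, 1 library stood so far from the others that its gap to the nearest, divided by the range of the group, was over Dixon's critical value. Chance gives such a gap in about 1 group in 20. With vehicle at 14 h the gap was 0.878 of the range for Hist2h3c2, 0.8292 for Hist1h2ba, 0.841 for Hist1h2bn and 0.873 for summed H3. For Hist2h3c2 and Hist1h2ba the library apart was replicate 1, which was the highest, and for Hist1h2bn it was the same replicate, which was the lowest. For summed H3 it was replicate 3, the highest. With IFN-β at 14 h Hist1h2an had a gap of 0.846 of the range, with replicate 2 the lowest. With vehicle at 2 h Hist1h2al had a gap of 0.853, with replicate 6 the highest.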

How the results depend on the processing

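All 59 members were called lower at 14 h, and in the difference between the times, under every alternative run. The median at 14 h stayed between -2.18 and -2.06 and that at 2 h between -0.10 and 0.07, and class sums at 14 h moved by less than the spread between libraries. The replicate block raised the calls in footprints at 2 h from 0 to 4 (10 members at an unadjusted p under 0.05), while calls over all genes rose from 243 to 1618 lower and from 635 to 1920 higher, and it left the other footprint counts of members at 59. With the replicate block, a permutation within replicate numbers added after the data were seen, 0 in place of 9 pairs of H1 genes passed at 14 h, since its smallest p is 0.125. In total RNA at 14 h the 16 calls became 10 with total counts alone, 26 with no filter, 1 with a mean of at least 50 counts (1 member tested) and 8 to 15 with 1 library left out. There the replicate numbers did not pair the libraries (correlations of -0.012 to 0.258), and the replicate block gave 16 calls at 14 h and 0 at 2 h. Uncalled values at 2 h changed sign for Hist1h2ab, Hist1h2an and Hist1h2ap with copies summed (0.0130), for Hist1h2ao with total counts alone (-0.0116) and for Hist2h3c2 with total counts alone (-0.0260) and limma-voom (-0.0137). Leaving out single libraries for the named members was added after the data were seen, and 25 of their 2 h values, none of them called, changed sign without some library. These ranged from -0.147 to 0.0254 for Hist1h1b, -0.0939 to 0.0669 for Hist1h1d, -0.0828 to 0.0687 for Hist1h1e, -0.0919 to 0.0974 for Hist1h2ab, -0.0973 to 0.212 for Hist1h2al, -0.199 to 0.164 for Hist1h2an, -0.0899 to 0.146 for Hist1h2ao, -0.282 to 0.0429 for Hist1h2ap, -0.128 to 0.110 for Hist1h2ba, -0.167 to 0.0572 for Hist1h2bb, -0.158 to 0.0312 for Hist1h2bn, -0.141 to 0.0227 for Hist1h2br, -0.167 to 0.0172 for Hist1h3a, -0.119 to 0.0502 for Hist1h3b, -0.121 to 0.0516 for Hist1h3e, -0.102 to 0.0522 for Hist1h4b, -0.0853 to 0.0738 for Hist1h4d, -0.0845 to 0.0585 for Hist1h4h, -0.139 to 0.0840 for Hist1h4n, -0.0104 to 0.235 for Hist2h2ac, -0.0437 to 0.159 for Hist2h2be, -0.0253 to 0.167 for Hist2h3b, -0.121 to 0.157 for Hist2h3c2, -0.0575 to 0.173 for Hist2h4 and -0.0957 to 0.0470 for Hist3h2a. Of all alternatives for named members 868 kept the direction and the call, 3 added a call (Hist1h1a, Hist3h2ba and Hist4h4 with the replicate block at 2 h) and 59 changed sign. The p-values measure the spread between 4 cultures. In total RNA the low counts of the members limit the test to those that passed the filter.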
